A study of Mus musculus with 4 samples.

Results

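The replication-dependent histone genes of mouse were followed in a pair of transformed testicular germ cell lines. They comprised 68 probes for 56 genes, out of 56605 probes and 37074 gene names on the array, and were every non-control probe whose gene name in the scanner files begins with Hist1h, Hist2h, Hist3h or Hist4h. GC-2 cells were derived from mouse spermatocytes immortalised with SV40 large T antigen together with a temperature-sensitive p53, and GC-1 cells from type B spermatogonia immortalised with large T antigen, so both lines carry large T. Per the labels, both lines were kept at 37 °C in high-glucose medium with 10% fetal bovine serum and collected in Trizol at 90% confluency. RNA of each line was hybridised to 2 one-colour Agilent arrays, and GC-2 (n = 2 arrays) was compared with GC-1 (n = 2 arrays). The labels do not say whether the arrays of a line came from separate cultures, so the p-values speak only of the variation among these 4 samples, part or all of which may be technical.

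Replication-dependent histones are the core histones H2A, H2B, H3 and H4 and the linker histone H1 that package newly copied DNA in S phase. Their genes lie in clusters and lack introns, and their mRNAs normally end in a conserved stem-loop in place of a poly(A) tail. The stem-loop is bound by SLBP, and the U7 snRNP cuts the transcript just after it. Some members also give polyadenylated transcripts, for example in cells that have left the cell cycle, and the testis makes its own variants during meiosis (H1t, TH2A and TH2B). The RNA here was reverse transcribed from an oligo-dT primer, which anneals to poly(A). The signals therefore cannot be read as total histone mRNA, and the share of each gene's transcripts that the primer reached was not measured.

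Some probes differ in which part of the transcript they detect, and their sequences are shown for that reason. The histone stem-loop was searched on the probe strand by its 16-letter consensus, whose letters stand in capitals below, with partial matches of at least 9 letters accepted at a probe's end. It was found in 10 of the 68 histone probes and in 14 of all 56605 probes (0.0247%). The 5 histone probes below carry it or run into it, shown as a stretch of 30 bases of the 60-base probe with the stem-loop letters in capitals and with the position of the whole probe on mm9.
Hist1h2ab (chr13:23843392-23843451, plus strand): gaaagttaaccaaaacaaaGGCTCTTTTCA
Hist1h3a (chr13:23853756-23853815, minus strand): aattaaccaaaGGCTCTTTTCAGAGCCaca
Hist1h4m (chr13:21903960-21904019, plus strand): caactaaaGGCCCTTTTCAGGGCCatccaa
Hist2h2bb, upstream probe (chr3:96074056-96074115, plus strand): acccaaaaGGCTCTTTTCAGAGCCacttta
Hist3h2ba, upstream probe (chr11:58762804-58762863, plus strand): agcgcccccaacccaaaGGCTCTTTTCAGA

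A second set of probes holds AATAAA, the letters of the common polyadenylation signal, and no stem-loop. They number 4 of the 68 histone probes, against 9.77% of all probes. In 1 of them, of Hist1h2ag, the letters overlap the stop codon at the end of the coding sequence. The capitals mark AATAAA in the 3 of them for which the gene had a pair of probes.
Hist2h2bb, downstream probe (chr3:96082754-96082813, plus strand): gttgtcagtttgAATAAAgacagagaaact
Hist2h2be, downstream probe (chr3:96027578-96027637, plus strand): gatcgAATAAAtccattcactgcatgtgca
Hist3h2ba, downstream probe (chr11:58762964-58763023, plus strand): gttcataatggtattAATAAAtttggttca

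Other probes are hard to assign to 1 gene because the coding regions of these histones are nearly the same. The 4 H2A probes below cover the end of the coding sequence up to the stop codon, and capitals mark the bases that differ from the Hist1h2af probe, 5 of 60 in each case.
Hist1h2af (chr13:23626113-23626172, plus strand): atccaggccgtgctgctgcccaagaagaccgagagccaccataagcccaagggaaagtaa
Hist1h2ak (chr13:21845304-21845363, minus strand): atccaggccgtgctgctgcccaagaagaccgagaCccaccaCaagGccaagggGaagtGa
Hist1h2an (chr13:21902669-21902728, plus strand): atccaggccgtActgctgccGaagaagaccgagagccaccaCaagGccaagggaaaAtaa
Hist2h2aa2 (chr3:96043781-96043840, minus strand): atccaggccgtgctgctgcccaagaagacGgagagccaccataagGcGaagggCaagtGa

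Values below are processed Cy3 intensities, and changes are differences of log2 intensity after the 75th percentile of each array was subtracted, GC-2 minus GC-1, ± SE from limma. The 75th percentile of the processed intensity was 416 and 199.9 for GC-2, against 666 and 693 for GC-1. Intensities therefore have to be read against a lower overall brightness of the GC-2 arrays. All 4 arrays lay on 1 slide with each line in its own row, so row and line cannot be told apart. Fewer cells in S phase and less histone RNA per cell cannot be told apart in these bulk samples either. Against the label of germ cell line, only 3 of 10 germ cell markers were well above background on both GC-2 arrays and 5 of 10 on both GC-1 arrays, with Dazl and Kit on none. Their summed intensity was 132 to 224 in GC-2 and 291 on both arrays in GC-1. Of 10 Sertoli cell markers, 8 were above background on both GC-2 arrays and 9 on both GC-1 arrays, with summed intensities of 8376 to 29836 in GC-2 and 494138 to 516631 in GC-1 and Amh on none. Clu alone read 27469 and 7180 in GC-2, and 176675 and 140357 in GC-1. Trf, at 22.3 and 11.2, and Krt18, at 38.1 and 16.3, were dim in GC-2. Of 9 tested, 7 were lower in GC-2 (23.5% of all genes), Gata4 was higher by 2.20 and Sox9 did not pass. Of 6 Leydig cell markers on the array, 3 were above background on both GC-2 arrays and 4 on both GC-1 arrays, with sums of 2929 to 5237 in GC-2 and 270 to 301 in GC-1. Nr5a1 alone read 4534 and 2386 in GC-2, and 101 and 113 in GC-1. Hsd3b1 and Lhcgr were above background on no array, and Cyp11a1 on both arrays of GC-1 but not of GC-2. Of 6 peritubular myoid markers, 5 were so on both GC-2 arrays and 6 on both GC-1 arrays, with sums of 9479 to 19370 in GC-2 and 7610 to 7677 in GC-1. Of 6 macrophage markers, 5 were so on both GC-2 arrays and 4 on both GC-1 arrays, with sums of 2700 to 8049 in GC-2 and 15025 to 22406 in GC-1. Of all probes, 57.5% to 64.9% were well above background on a single array. The part of these marker differences in the histone values was not tested.

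Most histone probes were measured. Of the 68, 57 were well above background on both GC-2 arrays and 58 on both GC-1 arrays, 55 were so on all 4 arrays, and 4 on none. On the single arrays, 62.0% and 57.5% of all probes were so in GC-2, and 64.9% and 63.5% in GC-1. For testing, both arrays of 1 line or the other had to be well above background, which 60 probes for 51 genes met. Of these 60 probes, 35 were higher in GC-2, 5 were lower and 20 did not pass the threshold of an adjusted p of 0.05, that is 58.3% higher and 8.33% lower. Among all 36692 probes tested, 24.1% were higher and 21.6% lower. With 1 probe per gene, 30 of the 51 histone genes were higher and 2 lower, against 20.2% and 23.5% of all 24129 genes tested. Without GC-1 replicate 1, 17 histone genes were called higher and 1 lower, and without GC-1 replicate 2, 24 and 1. Both GC-2 arrays lay above both GC-1 arrays for 44 of the 60 probes (40.7% of all probes) and below them for 9 (36.3% of all probes). The median change was 1.70 over the histone probes and 0.07 over all probes tested.

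Direction depended on what the arrays were scaled to. Scaling to the E1A spike-in controls, of which 8 of 10 probes were above background on all arrays, moved every change by -2.07, so that the median over all probes became -2.00 and that over the histone probes -0.37. Under that scaling 17 histone probes were higher and 25 lower in GC-2, against 1681 higher and 29901 lower of all 36692 probes tested. Relative to the median of all probes, the histone median stood at 1.63 under both scalings, which follows from subtracting 1 constant, and at 0.85 with normexp background correction and 0.96 with no filter on dim probes. The changes given below are therefore changes relative to the bulk of each array's probes, and a value under spike-in scaling is added where the call ended or the sign turned.

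**Figure D1:**
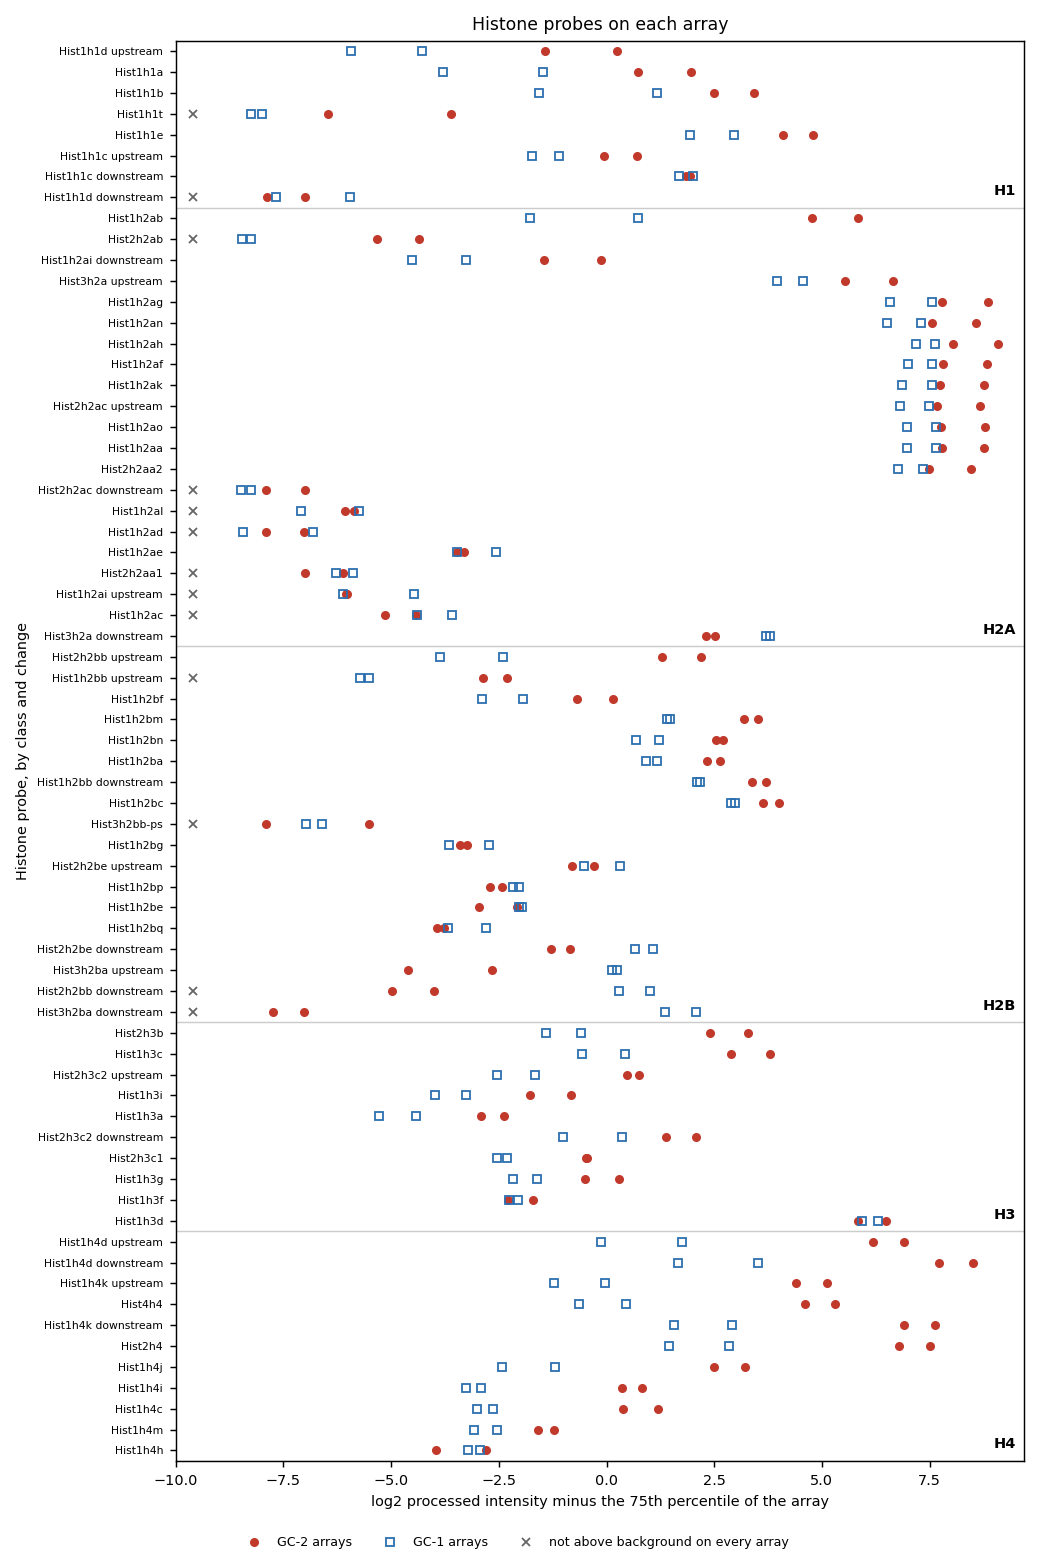
Normalised level of each of the 68 histone probes on each array (log2 processed intensity minus the array's 75th percentile), with GC-2 arrays as filled circles and GC-1 arrays as open squares, sorted within class by change; a cross marks probes not well above background on every array. For 10 of the 11 H4 probes both GC-2 circles lie right of both GC-1 squares, while the group of H2A probes at the right edge has its arrays close together.

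The classes differed in how far they moved. H4 had 10 of 11 tested probes higher and 1 not past the threshold (median 5.00). H1 had 5 of 6 higher and 1 not past it (median 2.58), and H3 8 of 10 higher and 2 not past it (median 2.13). H2A had 4 of 16 higher and 1 lower (median 1.04), and H2B 8 of 17 higher and 4 lower (median -0.14). These counts and medians are to be read against the 24.1% of all probes that were higher, the 21.6% that were lower and the median of 0.07. The share of H2A probes that were higher (25%) and that of H2B probes that were lower (23.5%) lay close to these. Under spike-in scaling the medians became 2.94 for H4, 0.52 for H1, 0.07 for H3, -1.03 for H2A and -2.20 for H2B. There 9 H4 probes were still called higher and 1 lower, against 1681 and 29901 of all 36692 probes. The median of H2B also turned positive with the percentile taken over probes detected on all arrays, with normexp background correction, with the filter on all 4 arrays and without GC-1 replicate 2. Without GC-2 replicate 1, H2A had 13 probes called higher and a median of 1.54, and without GC-2 replicate 2 it had 3 and a median of 0.53. H1 had 1 probe called higher without GC-2 replicate 2 and 3 without GC-1 replicate 1, and its median ranged from 1.92 to 3.52 over the left-out arrays. By genome cluster, 26 of 43 tested probes were higher and 17 did not pass in Hist1 on chromosome 13, 7 of 12 were higher and 2 lower in Hist2 on chromosome 3, 1 of 4 was higher and 3 lower in Hist3 on chromosome 11, and the single Hist4 probe on chromosome 6 was higher.

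**Figure D2:**
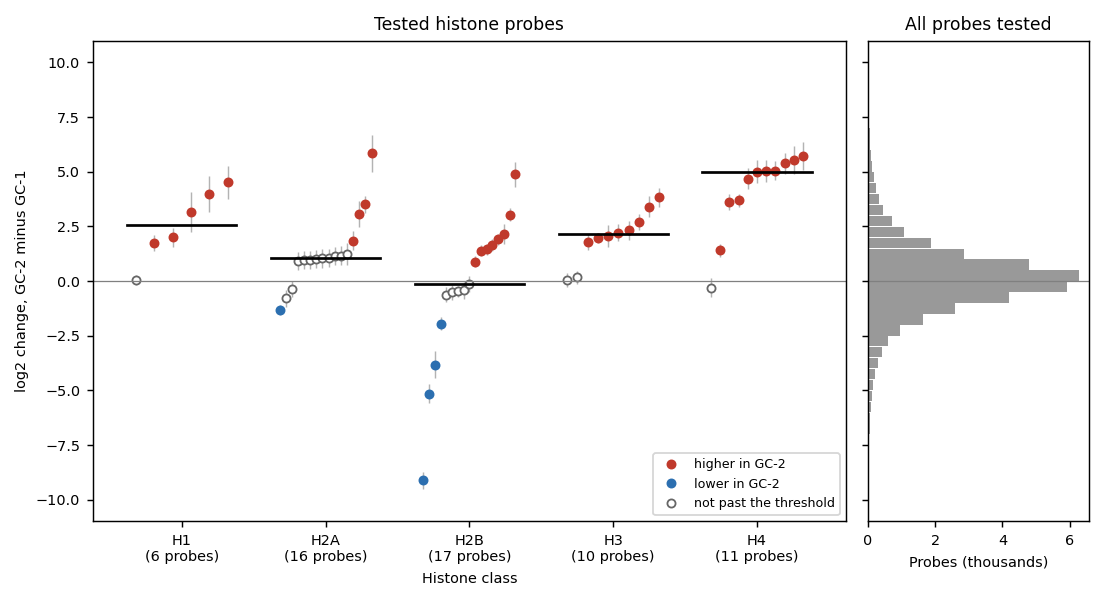
Log2 change (GC-2 minus GC-1, 75th percentile scaling) of the 60 tested histone probes by class, with SE as grey bars, class medians as black lines and the call by colour; the right panel counts all 36692 tested probes per bin of change on the same axis. H4 is centred near 5.00, while most probes of the array lie close to 0, and H2B lies on both sides of 0; its lowest point, the AATAAA probe of Hist3h2ba, is not above background in GC-2 and marks only a bound; scaling to E1A spike-ins would lower every point by 2.07 and turn the H2A median negative.

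Within each line, one array stood above the other for most histone probes. In GC-1, replicate 2 lay above replicate 1 for 46 of the 60 tested histone probes (48.7% of all probes), with a median gap of 0.67 (all probes -0.01). All 11 H4 and all 16 H2A probes were among the 46. In GC-2, replicate 2 lay above replicate 1 for 53 of the 60 (59.1% of all probes), with a median gap of 0.73 (all probes 0.09). The histone probes thus shifted together between arrays of 1 line, while the SE of a member is computed for that probe alone. The cause of the shared gap was not tested.

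Histone H4, the most conserved core histone, had the largest class median. Hist1h4d, measured by a probe printed in 10 spots (chr13:23673749-23673808, plus strand), had intensities of 88058 and 72865 in GC-2, against 2101 and 7884 in GC-1. Both GC-2 arrays were far above both GC-1 arrays, and the GC-1 arrays differed widely from each other. The change was 5.53 ± 0.65 (limma adjusted p = 0.00213), and 3.47 under spike-in scaling. Its upstream probe (chr13:23673515-23673574) had 30360 and 24083 in GC-2 and 611 and 2349 in GC-1, a change of 5.73 ± 0.65.

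Hist4h4, the lone H4 gene of chromosome 6 (chr6:136752717-136752776, minus strand), read 10105 and 7941 in GC-2, against 426 and 945 in GC-1. The groups did not overlap and the change was 5.06 ± 0.45 (limma adjusted p = 0.000961). Hist2h4 on chromosome 3 (chr3:96066953-96067012, minus strand) read 46017 and 36424 in GC-2, against 1820 and 4978 in GC-1. Its change was 5.00 ± 0.52 (limma adjusted p = 0.00154). Genes of 3 different chromosomes thus showed changes between 5.00 and 5.73.

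Hist1h4k had a downstream probe (chr13:21842063-21842122, minus strand) with 50023 and 39717 in GC-2 and 1975 and 5242 in GC-1. The change was 5.03 ± 0.51 (limma adjusted p = 0.00144), again without overlap. Hist1h4j, Hist1h4i and Hist1h4c were higher by 4.67, 3.68 and 3.61, and Hist1h4m by 1.40 ± 0.30 (limma adjusted p = 0.0143). Hist1h4m did not pass without GC-1 replicate 1 (1.14, limma adjusted p = 0.0728) or without GC-2 replicate 2 (1.21, 0.0649). Hist1h4m was the only one of the called H4 probes whose sign turned under spike-in scaling (-0.66). Hist1h4h (chr13:23622937-23622996, plus strand) was the exception, with 26.9 and 28.9 in GC-2 and 72.2 and 89.8 in GC-1. On the normalised scale its groups overlapped, and the change of -0.29 ± 0.42 did not pass (limma adjusted p = 0.601).

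The H4 probes share sequence, which limits how independent these values are. Among them, 4 probes (Hist1h4c, Hist1h4d, Hist1h4j and Hist1h4k) match another of the 4 in 45 to 52 bases. The following pair of probes is shown because the genes lie far apart on chromosome 13 while the probes differ in only 8 bases, marked by capitals in the Hist1h4c probe.
Hist1h4k, upstream probe (chr13:21842279-21842338, minus strand): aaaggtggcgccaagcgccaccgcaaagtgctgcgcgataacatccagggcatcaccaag
Hist1h4c (chr13:23790223-23790282, minus strand): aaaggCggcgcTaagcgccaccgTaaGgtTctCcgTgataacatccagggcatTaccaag

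The upstream Hist1h4k probe read 8707 and 6942 in GC-2 and 285 and 681 in GC-1, a change of 5.38 ± 0.48. The Hist1h4c probe read 539 and 455 in GC-2 and 82.4 and 111 in GC-1, a change of 3.61 ± 0.35. Both rose in GC-2, and how much of either signal came from transcripts of the other was not tested.

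Linker histone H1, which binds DNA between nucleosomes, rose for 4 of its 5 tested genes. Hist1h1d (chr13:23647452-23647511, plus strand) read 156 and 235 in GC-2, against 10.9 and 35.8 in GC-1. The arrays did not overlap and the change was 4.51 ± 0.74 (limma adjusted p = 0.00611). Hist1h1a read 685 and 783 in GC-2, against 48.2 and 248 in GC-1, a change of 3.98 ± 0.82 (limma adjusted p = 0.0128). It was also higher under spike-in scaling (1.91), as was Hist1h1d (2.45). Hist1h1d was 2.62 with normexp background correction, and Hist1h1a did not pass without GC-2 replicate 2 (3.35, limma adjusted p = 0.0538).

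Hist1h1b read 2352 and 2138 in GC-2, against 225 and 1559 in GC-1. The GC-1 arrays differed widely, and although no GC-1 array reached a GC-2 array, the change of 3.16 ± 0.90 only just passed (limma adjusted p = 0.0355). It was not past the threshold under spike-in scaling (1.09, adjusted p = 0.128). Its change did not pass without GC-1 replicate 1 (1.79, limma adjusted p = 0.0703), without GC-2 replicate 1 (3.62, 0.0592), without GC-2 replicate 2 (2.70, 0.129) or with no filter on dim probes (3.16, 0.0525). Hist1h1e read 7123 and 5584 in GC-2 and 2532 and 5355 in GC-1, a change of 2.01 ± 0.44 (limma adjusted p = 0.0151) that became -0.05 under spike-in scaling. It did not pass without GC-1 replicate 1 (1.5, limma adjusted p = 0.0709) or without GC-2 replicate 2 (1.66, 0.0633).

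Hist1h1c, whose human counterpart also gives polyadenylated transcripts, split by probe. Its downstream probe (chr13:23832018-23832077, plus strand) read 1500 and 762 in GC-2, against 2668 and 2238 in GC-1, and its normalised groups overlapped (change 0.04 ± 0.24, limma adjusted p = 0.899). Its upstream probe (chr13:23831330-23831389), which ends in the stem-loop, read 398 and 326 in GC-2 and 311 and 209 in GC-1, a change of 1.73 ± 0.37 (limma adjusted p = 0.0146). That change became -0.33 under spike-in scaling, and it did not pass without GC-1 replicate 2 (1.42, limma adjusted p = 0.0818) or without GC-2 replicate 2 (1.35, 0.0568). Hist1h1t, the meiotic variant H1t, was above background on GC-2 replicate 2 alone, with 4.70 and 16.4 in GC-2 and 2.61 and 2.28 in GC-1, and was not tested.

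Histone H3, whose tail carries many of the known regulatory marks, rose for 7 of 9 tested genes. Hist2h3b (chr3:96072881-96072940, plus strand) read 2183 and 1934 in GC-2, against 253 and 460 in GC-1, without overlap. Its change was 3.83 ± 0.42 (limma adjusted p = 0.00182). Hist1h3c read 3059 and 2772 in GC-2 and 448 and 934 in GC-1, a change of 3.41 ± 0.47 (limma adjusted p = 0.0035). Both remained higher under spike-in scaling, at 1.76 and 1.34.

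Hist1h3i and Hist1h3a, both measured on the stem-loop itself, were higher by 2.32 ± 0.42 and 2.21 ± 0.38. Neither was past the threshold under spike-in scaling, at 0.25 and 0.14. Without GC-1 replicate 1, Hist1h3i did not pass (1.95, limma adjusted p = 0.0616), and with normexp background correction Hist1h3a was 1.44. Hist1h3a read 55.1 and 38.7 in GC-2 and 17.0 and 32.5 in GC-1. Hist1h3d and Hist1h3f did not pass, with 0.05 and 0.17, and their normalised groups overlapped.

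Histone H2A split into a bright group with small changes and a few members with large ones. Hist1h2ab, whose probe runs into the stem-loop, read 11434 and 11495 in GC-2, against 194 and 1147 in GC-1. The GC-1 replicates differed widely, yet both lay far below the GC-2 arrays. The change was 5.84 ± 0.85 (limma adjusted p = 0.00426), or 3.77 under spike-in scaling. Hist1h2ai read 151 and 183 in GC-2 and 29.3 and 72.1 in GC-1 at its called probe, a change of 3.09 ± 0.59 (limma adjusted p = 0.0101) that was 2.47 and not past the threshold without GC-1 replicate 1 (0.0657). Under spike-in scaling it was 1.02 and just missed the threshold (0.0512). That probe overlaps those of Hist1h2an and Hist1h2ao on the genome and lies 93712 bases from the other probe of the name, which was not tested, so the value cannot be assigned to Hist1h2ai alone. Hist2h2ab had the only histone probe well above background on both arrays of GC-2 and on none of GC-1, with 10.3 and 9.83 in GC-2, against 1.90 and 2.29 in GC-1. Its level in GC-2 was at least 2.32-fold higher, where the bound sets the mean of the GC-2 arrays against the lowest signal well above background on the GC-1 arrays. The limma adjusted p of 0.00168 is that of the change of 3.51, computed from these dim GC-1 values, and not of the bound. The probe entered the test through GC-2 alone.

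The bright group comprised 8 H2A probes that match another of the group in 45 to 55 bases (Hist1h2aa, Hist1h2af, Hist1h2ag, Hist1h2ah, Hist1h2ak, Hist1h2an, Hist2h2aa2 and the upstream probe of Hist2h2ac). Their intensities ran from 74375 to 110433 and from 70351 to 108156 on the GC-2 arrays, and from 60889 to 97029 and from 109079 to 139377 on the GC-1 arrays. No spot was saturated. Each was higher in both GC-2 arrays than in both GC-1 arrays on the normalised scale, by 0.92 to 1.25, but none passed the threshold (limma adjusted p from 0.0652 to 0.120). Without GC-2 replicate 1 all 8 passed (1.41 to 1.78, limma adjusted p from 0.0227 to 0.047), and with quantile normalization the changes were 0.43 to 0.75. Hist1h2ah also passed with the percentile over detected probes, with normexp and with the filter on all 4 arrays (limma adjusted p from 0.0445 to 0.0482). All had negative changes under spike-in scaling, from -1.15 to -0.82. Hist1h2ao gave values of the same size, 90806 and 88602 in GC-2 and 84293 and 138207 in GC-1, with a change of 0.97 ± 0.43 (limma adjusted p = 0.119). Per the files its probe (chr13:21902695-21902754) overlaps that of Hist1h2an on the genome (chr13:21902669-21902728), so these names do not stand for separate measurements.

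Hist1h2aa, the testis variant TH2A, belongs to this group. It read 91193 and 86812 in GC-2, against 83369 and 139377 in GC-1, a change of 0.96 ± 0.43 (limma adjusted p = 0.120). Without GC-2 replicate 1 it passed, at 1.45 (limma adjusted p = 0.047). Its probe matches that of Hist2h2ac in 54 of 58 aligned bases, so a signal of the testis variant cannot be told apart from that of other H2A genes here. H2afj, an H2A gene on the list of replication-independent histones below, read 85246 and 80218 in GC-2 and 89602.5 and 136711 in GC-1. Its change was 0.82 ± 0.40. Its probe was not aligned with those of the bright group, and its share in their signal was not tested.

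Histone H2B, the partner of H2A in the nucleosome, moved both ways. Hist1h2ba, the testis variant TH2B, read 2106 and 1236 in GC-2, against 1491 and 1299 in GC-1 (chr13:24025811-24025870, minus strand). On the normalised scale both GC-2 arrays were above both GC-1 arrays, and the change was 1.45 ± 0.25 (limma adjusted p = 0.00738), becoming -0.62 under spike-in scaling. Hist1h2bc, whose human counterpart gives polyadenylated transcripts too, read 6660 and 2461 in GC-2 and 5229 and 5156 in GC-1. Its change of 0.88 ± 0.25 was just past the threshold (limma adjusted p = 0.0368) and turned to -1.19 under spike-in scaling. It did not pass in any fit without 1 array (0.69 to 1.07, limma adjusted p from 0.0559 to 0.140), nor with median centring (0.56, 0.174), normexp (0.67, 0.117) or no filter (0.88, 0.0984).

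Hist1h2bf, on the stem-loop, read 260 and 221 in GC-2 and 89.5 and 182 in GC-1, a change of 2.15 ± 0.44 (limma adjusted p = 0.0127), which was 0.08 and not past the threshold under spike-in scaling and did not pass without GC-1 replicate 1 (1.67, limma adjusted p = 0.0695) or without GC-2 replicate 2 (1.74, 0.0516). Hist1h2bm, Hist1h2bn and the downstream Hist1h2bb probe rose by 1.91, 1.66 and 1.39, and all 3 were negative under spike-in scaling. The upstream Hist1h2bb probe was higher by 3.03 ± 0.29 (limma adjusted p = 0.00116) and stayed so under spike-in scaling (0.97, limma adjusted p = 0.0209). It was dim, with 56.9 and 40.3 in GC-2 and 14.6 and 13.0 in GC-1, and not well above background on GC-1 replicate 2. Hist1h2be, Hist1h2bg, Hist1h2bp and Hist1h2bq did not pass, with changes from -0.62 to -0.14. Hist1h2bp was called lower with median centring (-0.78, limma adjusted p = 0.0428) and quantile normalization (-0.69, 0.0463).

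The clearest falls were in H2B genes of the smaller clusters. Hist3h2ba read 17.0 and 31.8 in GC-2, against 782 and 759 in GC-1, at the probe that runs into its stem-loop. The change was -3.81 ± 0.63 (limma adjusted p = 0.00634), the one stem-loop probe that fell. At its AATAAA probe the gene read 1.94 and 1.55 in GC-2, not well above background, against 2815 and 1787 in GC-1. It was at least 116-fold lower in GC-2 there. The limma adjusted p of 0.000164 is that of the change of -9.10, computed from these dim GC-2 values, and not of the bound. Hist2h2be, likewise polyadenylated in part in human, read 170 and 111 in GC-2, against 1061 and 1457 in GC-1, at its AATAAA probe, a change of -1.94 ± 0.29 (limma adjusted p = 0.00449). Its other probe, upstream, did not pass (-0.43 ± 0.37, limma adjusted p = 0.384), and its normalised groups overlapped. With spike-in scaling the changes at the stem-loop probe of Hist3h2ba and the AATAAA probe of Hist2h2be were -5.88 and -4.01. The stem-loop probe of Hist3h2ba did not pass without GC-1 replicate 1 (-3.76, limma adjusted p = 0.0562), and it was -2.26 with normexp background correction.

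Hist2h2bb gave opposite calls at its pair of probes. At the stem-loop probe it read 1012 and 921 in GC-2, against 45.5 and 131 in GC-1, a change of 4.88 ± 0.57 (limma adjusted p = 0.00212). At the AATAAA probe, 8698 bases downstream, it read 25.7 and 6.29 in GC-2, against 809 and 1389 in GC-1, a change of -5.14 ± 0.43 (limma adjusted p = 0.000792). On GC-2 replicate 2 that probe was not well above background, and with normexp background correction its change was -2.73. Neither probe's groups overlapped. Whether both probes detect transcripts of 1 gene was not tested, since the files give them only a shared name and strand.

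Hist3h2a was the other gene with opposite calls. Its upstream probe (chr11:58768387-58768446, plus strand) read 19376 and 20099 in GC-2, against 10338 and 16273 in GC-1, a change of 1.84 ± 0.44 (limma adjusted p = 0.0207). Its downstream probe (chr11:58768954-58769013), 567 bases further on, read 2064 and 1139 in GC-2, against 8670 and 9627 in GC-1, a change of -1.34 ± 0.23 (limma adjusted p = 0.00745). Spike-in scaling turned the first to -0.22 and left the second at -3.40, and scaling does not alter the difference between the probes. The upstream rise did not pass without GC-1 replicate 1 (1.54, limma adjusted p = 0.123), GC-1 replicate 2 (2.14, 0.0609) or GC-2 replicate 2 (1.29, 0.0611).

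In the 6 histone genes with a fully measured pair of probes, the downstream probe showed the lower change. Of 12 genes with a pair of probes, 11 had them within 10 kb on 1 strand. In 6 of these both probes were well above background on all 4 arrays (Hist1h1c, Hist1h4d, Hist1h4k, Hist2h2be, Hist2h3c2 and Hist3h2a). The probes of these 6 pairs start 197 to 688 bases apart and were not placed on a transcript, so they need not stand for its ends. In 6 of 6 the change of the downstream probe was lower, by -3.18 to -0.20, and the log2 ratio of downstream over upstream intensity was lower on both GC-2 arrays than on both GC-1 arrays. This ratio is free of the scaling of an array. For Hist3h2a it was -3.23 and -4.14 in GC-2, against -0.25 and -0.76 in GC-1. For Hist1h1c it was 1.91 and 1.23 in GC-2, against 3.10 and 3.42 in GC-1. A shift of the same sign was common on the array: of 3472 genes with at least 2 such probes within 10 kb, 64% had a lower change at the last probe than at the first, with a median difference of -0.33. The difference was below -1 in 28% of them, and in Hist1h1c, Hist2h2be and Hist3h2a among the 6. The members' share is to be read against these values. For the ratio on separate arrays, the share over all genes was not computed, so that count stands without a background. The 12th gene, Hist1h2ai, went the other way by 3.83, with probes 93712 bases apart and one of them not tested.

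**Figure D3:**
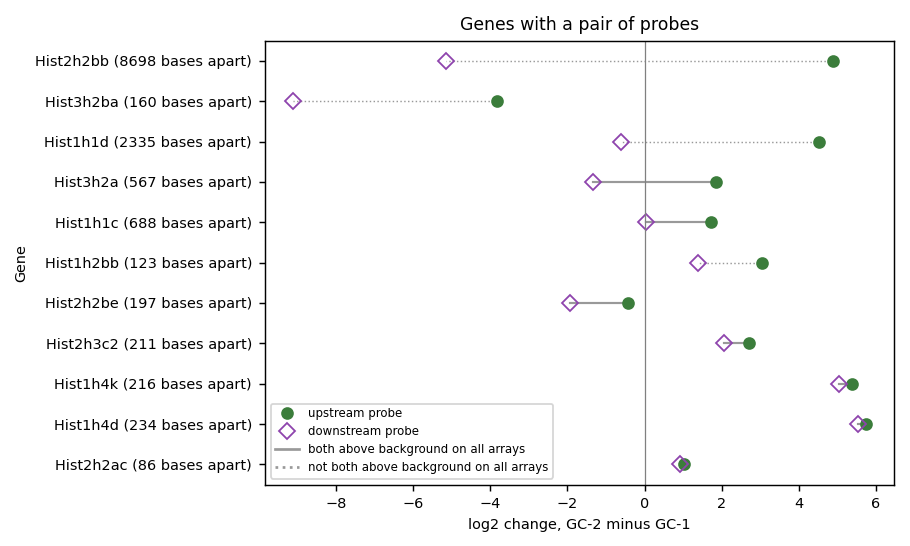
Log2 change (GC-2 minus GC-1, 75th percentile scaling) at the upstream probe (circle) and the downstream probe (diamond) of the 11 histone genes with both probes within 10 kb; solid lines join pairs well above background on all arrays. The diamond lies left of the circle in the 6 genes with solid lines, while dotted pairs include probes not above background on some arrays. Hist2h2bb and Hist3h2a have a called rise at the upstream probe and a called fall at the downstream probe. Under spike-in scaling every point would move left by 2.07, which turns several of them negative, the upstream change of Hist3h2a among them.

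Grouped by the letters of the probe, the 9 tested probes that hold the stem-loop or end inside it had 8 higher and 1 lower (median 2.21). Under spike-in scaling, only Hist1h2ab (3.77) and Hist2h2bb (2.82) of the 8 were still called higher, and Hist1h1c (-0.33) and Hist1h4m (-0.66) turned negative. Of the 4 AATAAA probes, 3 were lower and 1 was not past the threshold (median -3.54). The probe not past it, of Hist1h2ag, belongs to the bright H2A group and matches that of Hist1h2an in 46 of 48 aligned bases. Its AATAAA overlaps the stop codon, so the letters need not be a polyadenylation signal there. Of the lower ones, only that of Hist2h2be was well above background on all 4 arrays. That of Hist3h2ba was so on no GC-2 array and that of Hist2h2bb on GC-2 replicate 1 alone. The median therefore rests in part on dim values and on the Hist1h2ag probe. The 46 tested probes with neither had 27 higher and 1 lower (median 1.72). Of all probes 24.1% were higher and 21.6% lower (median 0.07). The remaining probe, of Hist1h2ae, starts inside the stem-loop and lies mostly downstream of it. It read 41.8 and 18.1 in GC-2 and 59.9 and 116 in GC-1, and did not pass (-0.36 ± 0.36, limma adjusted p = 0.440). These groups were formed on sequence, with the changes already known, and no test was made between them.

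Promoters of the histone classes carry known elements, and these were looked up in 250 bases upstream of the start on both strands. RefSeq (GRCm38.p6) held a promoter for 49 of the 56 genes. GGTCCG, the core of an H4 element, was found in 7 of 8 H4 promoters and in 6.82% of all 27025 promoters. The window of the other, Hist1h4h, ends in ggtcc, the first 5 of these letters, at the annotated start. CCAAT was present in all 6 H1, 17 H2A and 11 H2B promoters (34.5% of all promoters) but in 2 of 8 H4 promoters. AAACACA, the core of an H1 element, was found in 5 of 6 H1 promoters (6.22% of all), and ATTTGCAT, the octamer bound by Oct1, in 5 of 11 H2B and 7 of 17 H2A promoters (1.61% of all). TATAAA was found in 49.0% of the histone promoters and 13.0% of all promoters.

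The following stretches of 120 bases end just before the start of the gene on GRCm38.p6 and have these elements in capitals, on either strand. Hist1h4d and Hist4h4 are shown as H4 genes of different chromosomes with like changes, and Hist1h1b as an H1 gene with the H1 element, CCAAT and TATAAA.
Hist1h4d (chr13:23581448-23581567, plus strand): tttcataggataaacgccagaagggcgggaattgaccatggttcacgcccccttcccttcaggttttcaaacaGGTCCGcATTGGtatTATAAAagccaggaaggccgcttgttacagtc
Hist4h4 (chr6:136804432-136804551, minus strand): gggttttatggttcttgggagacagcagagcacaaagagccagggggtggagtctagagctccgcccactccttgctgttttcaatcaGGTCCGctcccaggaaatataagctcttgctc
Hist1h1b (chr13:21780626-21780745, minus strand): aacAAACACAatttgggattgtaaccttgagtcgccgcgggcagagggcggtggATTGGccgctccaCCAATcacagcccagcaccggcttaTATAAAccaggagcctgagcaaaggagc

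The letters are a description of these windows, and binding was not measured.

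**Figure D4:**
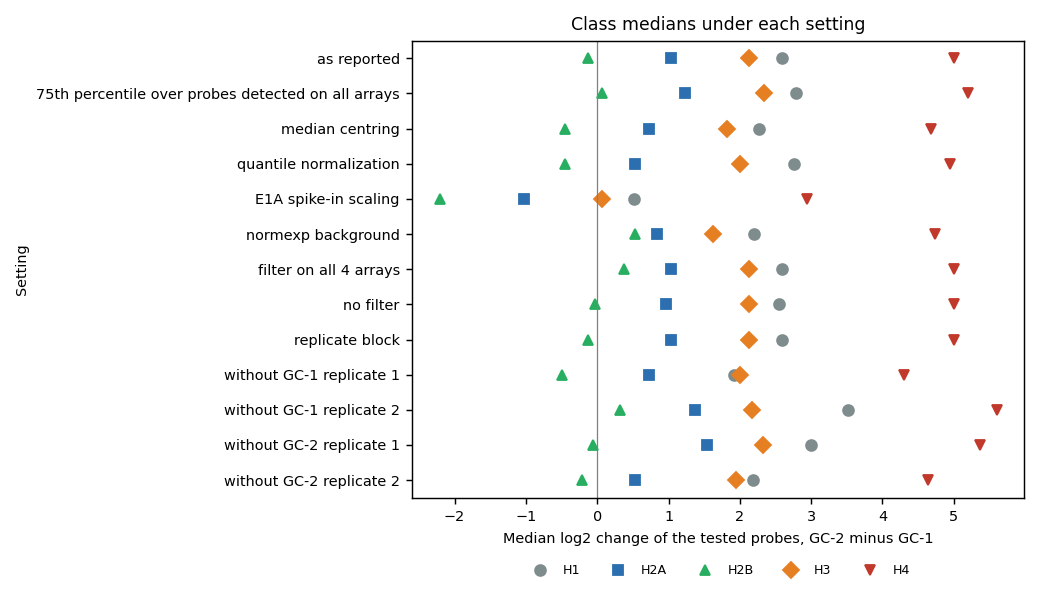
Median log2 change (GC-2 minus GC-1) of the tested probes of each histone class under the setting as reported and each alternative for scaling, background, filter, replicate block and left-out array. H4 keeps a positive median throughout, from 2.94 with E1A spike-in scaling upwards, while H2A turns negative under spike-in scaling (-1.03) and H2B lies on both sides of 0.

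Genes that make or handle histone mRNA moved in both directions, in the fit of 1 probe per gene that is used for all lists below. The list of 29 histone mRNA processing genes, all tested, had 4 higher and 4 lower and a median of -0.29, against the 20.2% and 23.5% of all genes. Slbp, which encodes the stem-loop binding protein, read 1557 and 749 in GC-2, against 9440 and 6811 in GC-1, and fell by 1.66 on the log2 scale (SE 0.27, limma adjusted p = 0.00675). Lsm11, a protein of the U7 snRNP, read 330 and 172 in GC-2, against 2813 and 1480 in GC-1, a change of -1.86 ± 0.37 (limma adjusted p = 0.0129). Neither gene's arrays overlapped between lines.

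Fip1l1, of the polyadenylation machinery, was lower by -1.76 ± 0.22 (limma adjusted p = 0.00321). Its change was -0.61 and not past the threshold when all its probes were averaged (adjusted p = 0.068). Zcchc11, a uridylating enzyme, and Srrt, the cap-binding complex partner ARS2, were higher by 2.38 and 1.94. Under spike-in scaling Zcchc11 did not pass (0.31) and Srrt turned to -0.13. Npat, the coactivator of histone genes, Casp8ap2, the processing factor FLASH, and Lsm10, of the U7 snRNP, did not pass, with -0.43, -0.70 and -0.42. All 3 were called lower under spike-in scaling, as were 20678 of all 24129 genes, and Casp8ap2 was positive (0.35) when all its probes were averaged.

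Replication-independent histones, which replace the others outside S phase and have ordinary polyadenylated mRNAs, had 2 of 15 tested genes higher and 3 lower (median -0.10), against the 20.2% and 23.5% of all genes. H1fx, a linker histone, was higher by 1.95 ± 0.25 (limma adjusted p = 0.00333). H2afz, the variant H2A.Z, was higher by 1.07 ± 0.24 (limma adjusted p = 0.0198). Both were negative under spike-in scaling, at -0.12 and -1.0. H1f0, the linker histone of resting cells, read 72.4 and 19.1 in GC-2, against 549 and 260 in GC-1, a change of -2.11 ± 0.49 (limma adjusted p = 0.0208). It was 0.15 in the authors' log2 table, on which its fall was not seen. H2afy3 was lower by -0.87 ± 0.26 (limma adjusted p = 0.0437), which did not pass in any fit without 1 array (-1.07 to -0.68). H2afz did not pass without GC-1 replicate 1 (1.24), GC-1 replicate 2 (0.90) or GC-2 replicate 2 (0.97), nor H1f0 without GC-1 replicate 1 (-1.54) or GC-2 replicate 2 (-1.68).

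Of 26 histone chaperone genes, 7 were higher and 4 lower (median 0.27), again against 20.2% and 23.5%. Hira, which deposits H3.3, was higher by 2.45 ± 0.30 (limma adjusted p = 0.00289), but did not pass under spike-in scaling (0.39). Vps72, which handles H2A.Z, Asf1a, a chaperone of H3 and H4, and Mcm2, of the replicative helicase, were higher by 1.77, 1.77 and 1.51, and all 3 were negative under spike-in scaling. Of 29 S phase genes, 4 were higher and 3 lower (median 0.04), below both shares of all genes. Among them was Rfc3 at 1.53, which was -0.54 under spike-in scaling. Mcm3, of the replicative helicase, and Cdt1, which loads it, were lower by -1.26 and -1.01, and Slbp also belongs to this list. Mcm3 did not pass without either GC-1 replicate (-1.29 to -1.23), and Cdt1 passed in none of the fits without 1 array (-1.17 to -0.85).

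**Figure D5:**
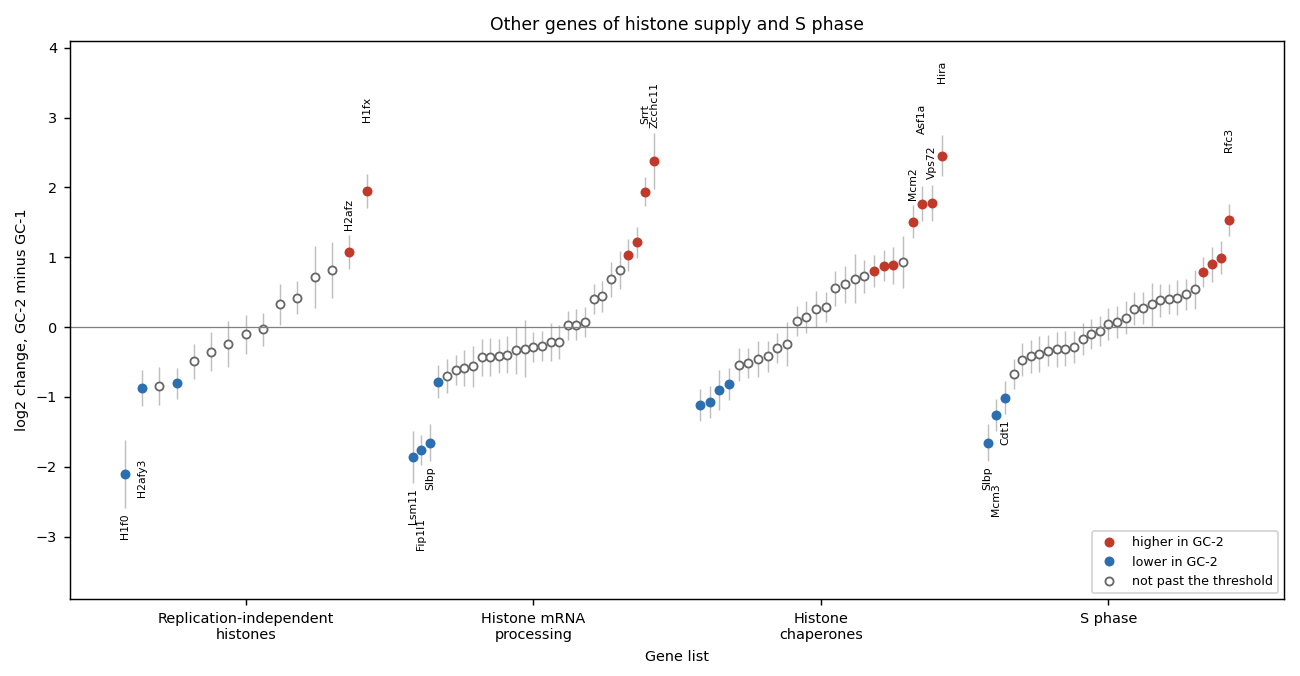
Log2 change (GC-2 minus GC-1, 75th percentile scaling) with SE of the tested genes of 4 lists around histone supply and S phase, coloured by call, with the named genes labelled. The points of each list spread around 0, with list medians from -0.29 to 0.27, and under spike-in scaling all would lie lower by 2.07.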

How the data were processed

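The members, gene lists and sequence groups were chosen with earlier results of these data known. RNA was primed with oligo-dT, amplified and labelled with Cy3, per the labels. Per the file headers, Agilent Feature Extraction 11.5.1.1 read the spots, and its processed intensity is the background-subtracted Cy3 brightness with no scaling between arrays. Build mm9 is that of the deposited probe positions. A deposited table of the authors' own log2 values, 1 for each gene name, was used as an alternative. How several probes were combined in it is not stated in the sources.

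From the scanner files, control spots and spots marked as outliers were left out, spots of a probe were averaged, and log2 processed intensity minus the array's 75th percentile was analysed. Well above background is the scanner software's flag. Probes so flagged on both arrays of at least 1 line were tested by limma's moderated test (version 3.58.1, R 4.3.3, two-sided), with Benjamini-Hochberg adjustment over 36692 probes and a threshold of 0.05. A second fit took the brightest tested probe of each of 24129 gene names. This step was first tested on simulated data with known changes. The number of arrays limits the precision. Alternatives concerned scaling, background correction, filter, replicate block, left-out arrays and the handling of several probes. All 56 member names matched the RefSeq gene table, used for names alone, and promoters came from RefSeq GRCm38.p6.

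Members were named by rule: the testis variants and members with known polyadenylated transcripts, up to 4 per class with the largest changes past the threshold, those above background in 1 line alone, those with opposite calls, and up to 4 per other list, with Slbp, Npat, Casp8ap2, Lsm10 and Lsm11 always. Other members and figures given for them were chosen after their values were seen.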

Additional observations from a re-analysis of the deposited data

How the results depend on the processing

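Leaving out 1 array at a time, the histone probes called higher in GC-2 numbered 26 to 41 and those lower 4 to 5, with a median change of 1.33 to 1.76. By gene, 17 to 36 were higher and 1 to 2 lower. Genes past the threshold in either direction numbered 1 to 5 among replication-independent histones, 5 to 8 in histone mRNA processing, 4 to 6 among chaperones and 2 to 3 in the S phase list. In these fits a lone array is assumed to vary like those of the other line. Over the whole array, fewer probes and genes passed in either direction in each of them than with all 4 arrays. Hist1h1c ranged from -0.11 (without GC-1 replicate 2) to 0.20 (without GC-1 replicate 1).

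Of all 36692 probes tested, E1A spike-in scaling called 1681 higher and 29901 lower, and of all 24129 genes 924 higher and 20678 lower. It gave 17 histone probes higher and 25 lower, a median of -0.37, and 15 histone genes higher and 21 lower. It also put 14 replication-independent histones, 27 processing, 22 chaperone and 28 S phase genes past the threshold, all lower in GC-2 like most genes of the array. It turned Hist1h2aa to -1.11, Hist1h2ba to -0.62, Hist1h1c to -2.02, Hist1h2bc to -1.19, Hist1h1e to -0.054, Hist3h2a to -0.22, H1fx to -0.12, H2afz to -1.0, Srrt to -0.13, Vps72 to -0.29, Asf1a to -0.30, Mcm2 to -0.56 and Rfc3 to -0.54. This setting subtracts 1 constant, so the sign changes follow from its construction. Which scaling fits these lines was not tested.

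Hist1h1c also turned negative with median centring (-0.27) and with normexp (-0.083). Averaging the probes of a gene gave -0.13 for Hist2h2bb, whose probes oppose each other, and 0.35 for Casp8ap2. The authors' log2 table gave 0.15 for H1f0 and 0.30 for Casp8ap2, and 3 replication-independent histones, 6 chaperones and 11 S phase genes past the threshold. The filter on all 4 arrays left 3 histone probes called lower, since it removes 2 that were dim in GC-2. With the percentile over detected probes, 3 replication-independent histones passed. Normexp gave 6 chaperones. With no filter, 3 replication-independent histones, 5 chaperones and 3 S phase genes passed. For those settings whose construction does not show it, the cause was not tested.

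The share of higher against lower calls over all probes was 8845 to 7935 as reported, 10646 to 6592 with the percentile over detected probes, 6670 to 10414 with median centring and 1681 to 29901 with spike-ins. With a replicate block, 44 histone probes were higher and 5 lower, 39 genes higher and 2 lower, and the 8 bright H2A probes passed (limma adjusted p from 0.011 to 0.0365), Hist1h2aa at 0.96 among them, while H2afy3 did not at -0.87. Same-numbered arrays of the lines deviated together only weakly (r = 0.124 across probes, 2 pairs), so the numbers were not taken to pair the samples. Dim probes, such as those of Hist2h2ab and Hist1h1t, lie close to background and their changes are bounds or were not tested.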
